A study of Rattus norvegicus with 4 samples.

Results

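The cytochrome P450 2C subfamily was followed in rat liver RNA 12 h after ligation of the common bile duct. Its members were the 14 probes, of 1936 on the array, whose gene symbol begins with Cyp2c. They were named for 4 genes, with 4 probes for Cyp2c12, 4 for Cyp2c6v1, 3 for Cyp2c22 and 3 for Cyp2c23, and each probe was kept separate. The members were chosen by name and not by their values. The RefSeq table of assembly GRCr8 lists 11 protein-coding Cyp2c genes on rat chromosome 1, and the other 7, among them Cyp2c11, Cyp2c7 and Cyp2c13, had no probe named for them here.

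The ligated group consisted of male Sprague-Dawley rats of 250 to 300 g whose common bile duct was tied between liver and intestine. The sham group consisted of the same kind of rats, in which the duct was exposed but not tied, and both groups were killed 12 h after surgery under ether. RNA from the right lateral lobe was pooled over 3 rats per group, so no value belongs to 1 animal. Both pools were hybridised together on 4 two-colour cDNA arrays, with the ligated pool in Cy5 and the sham pool in Cy3 on arrays 1 and 3, and with the dyes exchanged on arrays 2 and 4.

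Cyp2c enzymes are haem proteins of the endoplasmic reticulum that oxidise drugs, steroids and fatty acids with electrons passed on by the reductase Por. In rat liver several of them are sex-specific under the control of the pattern of growth hormone secretion. Cyp2c11 and Cyp2c13 are the male forms and Cyp2c12 is the female form. Cyp2c22 hydroxylates retinoic acid, and RefSeq lists Cyp2c70 among its synonyms, the name of the mouse enzyme that makes muricholic acids, which are bile acids of rodents. Cyp2c6v1 is a constitutive liver form that phenobarbital induces, and Cyp2c23 is an arachidonic acid epoxygenase best known in rat kidney.

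The values were log ratios of the 2 channels of an array, and their direction is not stated in the sources used here. They were read as ligation over sham, which is likely because the labels give ligation as channel 2 on every array, and as logarithms to base 2. The medians of all 1936 deposited values were -1.26, 0.43, -0.96 and 0.26 on arrays 1 to 4, so the columns differed with the dye orientation. Across all probes, which are not independent replicates, arrays of the same orientation correlated at r = 0.93 and 0.94, and arrays of opposite orientation at -0.45, -0.36, -0.35 and -0.28. Each array was therefore centred on its median, and a dye term was kept in the model. A ratio does not give the level of a transcript, so neither the presence of a gene nor the identity of the tissue could be checked against marker levels. In whole liver, fewer cells of a type and less RNA per cell cannot be told apart. The labels do not say whether the 4 arrays held separate RNA preparations, and p-values therefore measure only the spread between these arrays, which may be technical.

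No promoter sequence of Cyp2c6v1 was available here. The promoters of the other 3 of the 4 genes, which hold the highest and the lowest members of the subfamily, are shown. They are the 250 bases before the start, 5′ to 3′ on the gene's minus strand, from RefSeq, build GRCr8. The windows are chr1:248980768-248981017 for Cyp2c22, chr1:248677035-248677284 for Cyp2c12 and chr1:252863068-252863317 for Cyp2c23. Capitals mark matches on either strand. The TATA box was searched as TATAAA. The FOXA core was searched as TGTTTAC. A nuclear receptor half-site was searched as AGGTCA. The HNF6 motif was searched as ATTGAT.
Cyp2c22: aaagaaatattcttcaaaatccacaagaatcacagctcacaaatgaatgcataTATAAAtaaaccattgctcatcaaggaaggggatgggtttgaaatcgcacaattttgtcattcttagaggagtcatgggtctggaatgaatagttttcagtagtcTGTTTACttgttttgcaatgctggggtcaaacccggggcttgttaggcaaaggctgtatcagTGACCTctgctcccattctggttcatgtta
Cyp2c12: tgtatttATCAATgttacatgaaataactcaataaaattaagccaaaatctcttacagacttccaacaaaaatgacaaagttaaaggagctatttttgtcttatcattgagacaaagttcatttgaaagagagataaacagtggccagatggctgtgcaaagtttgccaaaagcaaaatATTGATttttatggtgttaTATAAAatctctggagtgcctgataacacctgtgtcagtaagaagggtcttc
Cyp2c23: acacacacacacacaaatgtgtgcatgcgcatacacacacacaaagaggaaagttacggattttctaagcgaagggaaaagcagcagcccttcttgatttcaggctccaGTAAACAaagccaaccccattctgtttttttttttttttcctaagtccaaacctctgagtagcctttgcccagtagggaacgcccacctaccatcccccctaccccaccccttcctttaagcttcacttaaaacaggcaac
Cyp2c22 held a TATA match 197 bases, a FOXA match 92 bases and a reversed half-site 30 bases before its start. Cyp2c12 held a TATA match at 52 bases and HNF6 matches at 243 and 71 bases, and Cyp2c23 held a reversed FOXA match at 141 bases. Of 33469 rat promoter windows of this length, 12.9% held the TATA letters, 3.21% the FOXA core, 14.1% the half-site and 7.1% the HNF6 letters. The STAT5 motif, searched as TTCNNNGAA and held by 7.67% of windows, was not found in these 3. An HNF1 half-site, searched as GTTAAT and held by 6.45%, was not found either, and no 2 matches overlapped. The longest run of bases shared exactly by 2 of the 3 windows was 9, between Cyp2c22 and Cyp2c23. Cyp2c12 shared a run of 13 with Cyp2c13 and one of 13 with Cyp2c7. In RefSeq order, Cyp2c13 lies between Cyp2c12 and Cyp2c22.

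In the ligated pool all 3 probes of Cyp2c22 rose, by 2.56-fold to 2.87-fold, together with 1 of 4 probes named for Cyp2c12, which rose 2.50-fold. The remaining 10 probes moved less or downward, and the lowest, a Cyp2c23 probe, fell 1.77-fold. Of the 14 probes, 6 were higher, 2 were lower and 6 did not pass a Benjamini-Hochberg adjusted p of 0.05 in limma. Of all 1648 tested probes 11.8% were called higher and 16.1% lower, 27.9% in all. As deposited, 4 members were positive on all 4 arrays, as were 2% of tested probes, and 4 were negative on all 4, as were 31.1%, which makes 8 of 14 members with 1 sign beside 33.1%. After centring, 12.1% of tested probes had 1 sign throughout. Only the 4 leading probes had the same sign on all 4 arrays both as deposited and after centring, and they reached at least 1.5-fold, a combination of sign after centring and size met by 5.22% of tested probes. Without the dye term the ligation terms were the same, but the SE took in the difference between orientations and all 8 calls were lost. The limma adjusted p was then 0.203 for Cyp2c12 probe 372, 0.249 to 0.333 for the Cyp2c22 probes and 0.795 for Cyp2c23 probe 766.

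**Figure D1:**
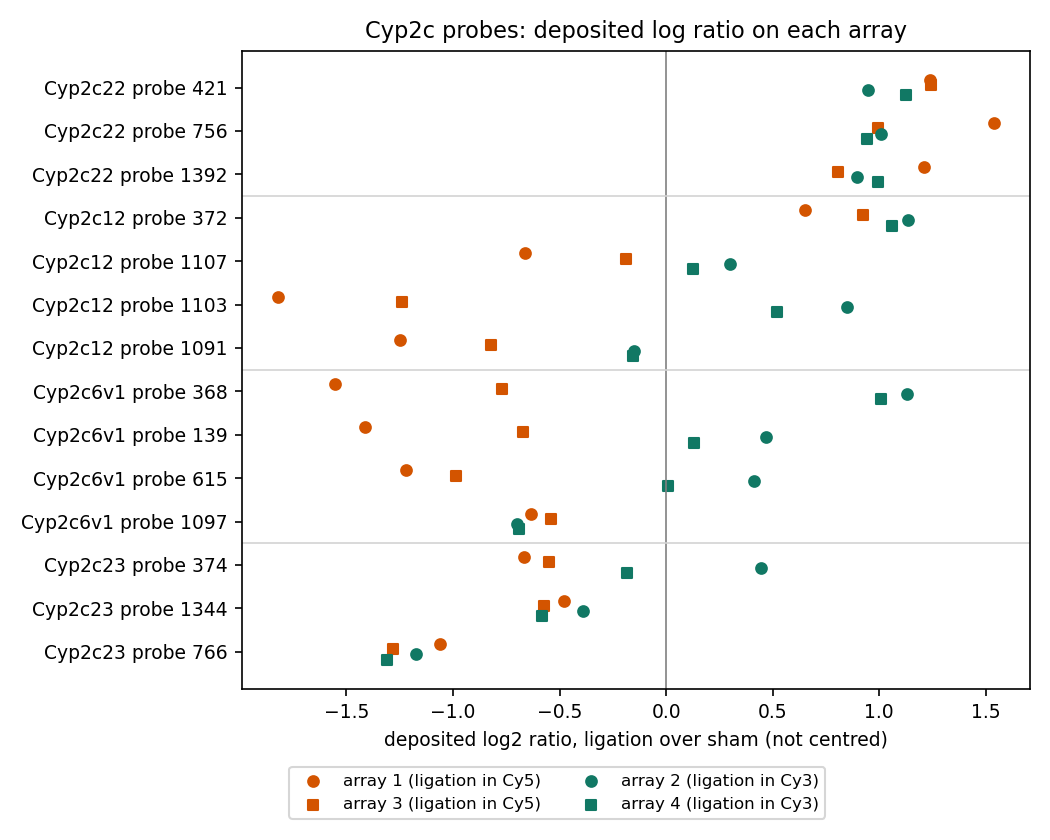
Deposited log2 ratio (horizontal, ligation over sham, not centred) of the 14 Cyp2c probes, 1 point per array, with orange for ligation in Cy5, green for ligation in Cy3, circles for arrays 1 and 2 and squares for arrays 3 and 4. The 3 Cyp2c22 probes and Cyp2c12 probe 372 lie right of 0 on all 4 arrays, Cyp2c23 probes 766 and 1344, Cyp2c6v1 probe 1097 and Cyp2c12 probe 1091 lie left of 0, and the other 6 change side with the dye orientation or, for Cyp2c23 probe 374, on array 2 alone.

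Cyp2c22 probe 421 had deposited log2 ratios of 1.24, 0.95, 1.24 and 1.12 on arrays 1 to 4. Probe 756 had 1.54, 1.01, 0.99 and 0.94, and probe 1392 had 1.21, 0.89, 0.81 and 0.99. As deposited, all 12 values were positive. The 2 dye orientations overlapped or lay close, with mean differences of 0.20, 0.29 and 0.066 (ligation in Cy5 minus ligation in Cy3). Centring moved the orientations apart, because the array medians differ with orientation. Probe 421 then stood at 2.49, 0.52, 2.20 and 0.86 on arrays 1 to 4. Probe 756 stood at 2.80, 0.58, 1.95 and 0.68, and probe 1392 at 2.47, 0.47, 1.76 and 0.73. The dye term took up this gap. After centring, the ligation term was 1.52 ± 0.09 (SE) for probe 421, 1.5 ± 0.11 for probe 756 and 1.36 ± 0.11 for probe 1392, at limma adjusted p of 1.75e-08, 2e-07 and 2.8e-07. They ranked 2, 3 and 8 from the highest among 1648 tested probes, and 66, 30 and 173 if the table is read as Cy5 over Cy3. Without centring the terms were 1.14, 1.12 and 0.98, still called higher, where 1.88% of all tested probes were called higher.

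Cyp2c12, the female form, was measured here in male animals. Its probe 372 had deposited log2 ratios of 0.65, 1.13, 0.92 and 1.06, all of them positive. Its ligation term was 1.32 ± 0.08 (SE; limma adjusted p = 1.75e-08), and 0.94 without centring. The other 3 probes of the same name were lower than this one on every array. Probe 1107 had deposited values of -0.66, 0.30, -0.19 and 0.12, probe 1103 had -1.82, 0.85, -1.24 and 0.52, and probe 1091 had -1.25, -0.15, -0.82 and -0.16. Their arrays separated by dye, with differences between orientations of -0.64, -2.21 and -0.88. Probe 1107 was called higher at 0.27 ± 0.08 (SE; limma adjusted p = 0.0178), but stood at -0.11 without centring. It no longer passed when array 2, array 3 or array 4 was left out (limma adjusted p = 0.108, 0.0543 and 0.104). Probes 1103 and 1091 did not pass, at -0.041 and -0.21 (limma adjusted p = 0.83 and 0.0659), and without centring both were called lower at -0.42 and -0.59.

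Cyp2c6v1, the constitutive form, gave no common direction. Probe 1097 had deposited log2 ratios of -0.63, -0.70, -0.54 and -0.69, negative on all 4 arrays and nearly equal in both orientations (difference 0.11). It was called lower at -0.26 ± 0.08 (SE; limma adjusted p = 0.0287), and at -0.64 without centring. That call was lost without array 2, array 3 or array 4 (adjusted p = 0.253, 0.0977 and 0.0665), and with centring on the tested probes alone (-0.22, adjusted p = 0.062). Probe 368, with -1.55, 1.13, -0.77 and 1.01, alternated in sign with the dye. It was called higher at 0.34 ± 0.09 (SE; limma adjusted p = 0.0115), but stood at -0.046 without centring. It no longer passed when array 3 was left out (0.22, limma adjusted p = 0.0733) and with centring within print blocks (0.26, adjusted p = 0.0594). Probes 139 and 615 also alternated, with ranges of -1.41 to 0.47 and -1.22 to 0.41, and did not pass at 0.012 and -0.065 (limma adjusted p = 0.965 and 0.681).

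Cyp2c23, the epoxygenase, had the lowest member. Its probe 766 had deposited log2 ratios of -1.06, -1.17, -1.28 and -1.31 on arrays 1 to 4, negative throughout and with a difference of 0.072 between orientations. It was called lower at -0.82 ± 0.09 (SE; limma adjusted p = 1e-05), and at -1.21 without centring. Probe 1344 had -0.48, -0.39, -0.57 and -0.58 and did not pass after centring (-0.12, limma adjusted p = 0.373), while it was called lower at -0.51 without centring. Probe 374 had -0.66, 0.45, -0.55 and -0.18 and did not pass under either (0.14 and -0.24, limma adjusted p = 0.31 and 0.0755).

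**Figure D2:**
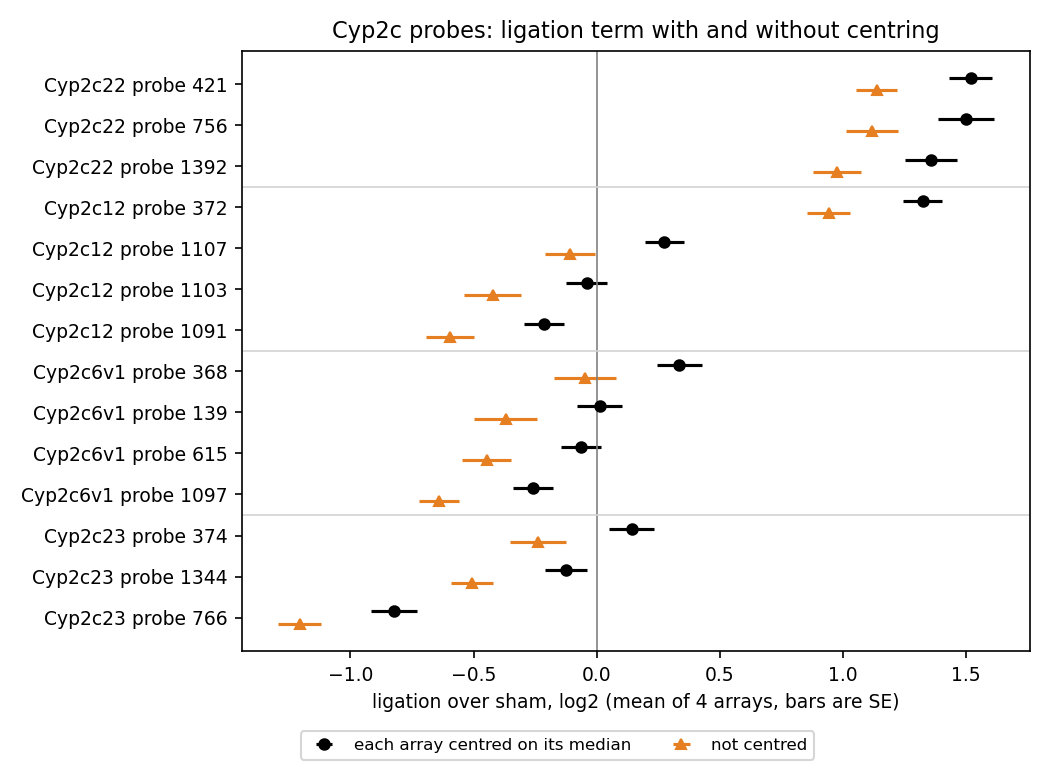
Ligation term (horizontal, log2 of ligation over sham, bars are SE from limma over 4 arrays) of the 14 Cyp2c probes, with black circles for arrays centred on their median and orange triangles for values not centred. The lower position of every triangle is the shift of about -0.38 between both zero points, and the 3 Cyp2c22 probes and Cyp2c12 probe 372 stay above 0 under both.

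The zero point set the call of several members. Without centring every ligation term moved by -0.38, and 4 of 14 members were called higher and 7 lower, where 80.7% of all tested probes were called lower. Centring instead on the 824 tested probes that differed least between dye orientations, a setting added after seeing the data, gave 6 members higher and 1 lower, where 14% and 13.5% of tested probes were called. If the table is read as Cy5 over Cy3, the 3 Cyp2c22 probes were at 0.83, 0.87 and 0.76. Cyp2c12 probe 372 was at 0.57, and each was called higher. Under that reading Cyp2c23 probe 766 turned to 0.76 and Cyp2c6v1 probe 1097 to 0.78. A term there depends only on the probe's difference between orientations, plus a shift from centring that is the same for every probe. Apoe probe 490, with a difference of -0.00051, stood at 0.72. A call of higher under that reading is therefore no separate support for these probes.

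The difference between dye orientations moved with the size of the response over the whole slide. The median absolute difference was 1.15. Of the 824 probes below it 46.7% were called, and of the 824 above it 8.98%. Of the members, 10 lay below it, 7 of them called, and 4 above it, 1 of them called. The 4 were Cyp2c12 probe 1103 and Cyp2c6v1 probes 139, 368 and 615. No intensity was used, and the part of the dye difference in these calls was not tested.

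**Figure D3:**
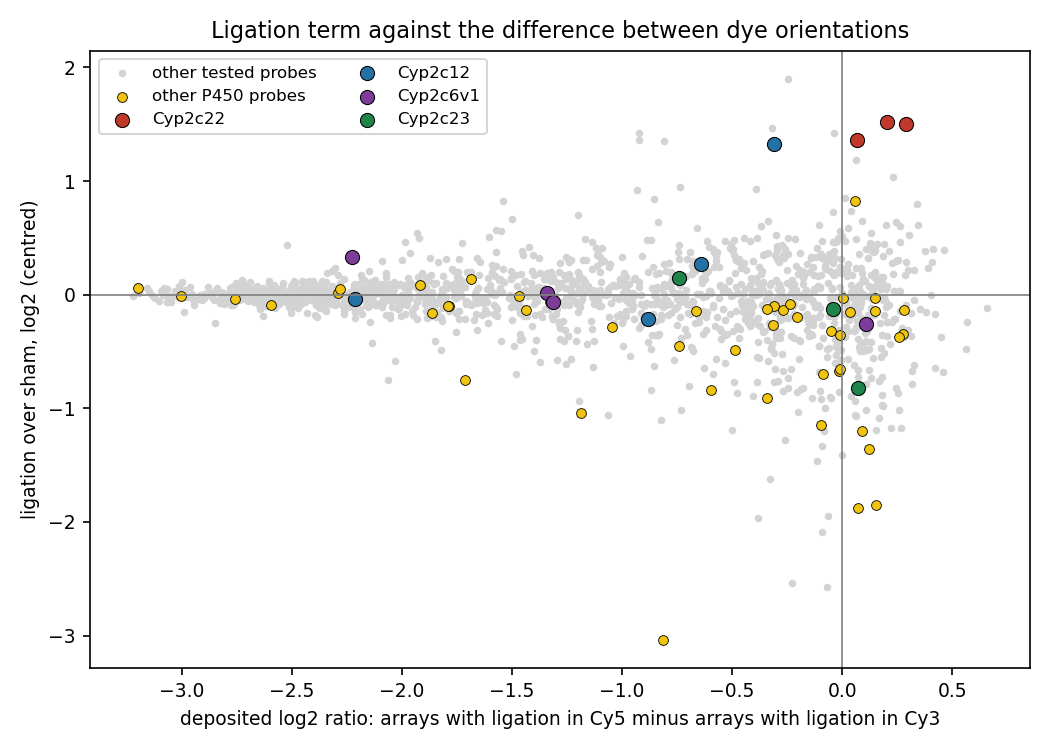
Ligation term (vertical, centred log2 ratio) against the difference in deposited log2 ratio between arrays with ligation in Cy5 and arrays with ligation in Cy3 (horizontal), 1 point per tested probe, with Cyp2c genes in colour, other P450 probes in yellow and the rest in grey. The Cyp2c22 probes and Cyp2c12 probe 372 lie at the top with small dye differences. Most points toward the left, such as Cyp2c12 probe 1103 at -2.21, lie near a ligation term of 0, but Cyp2c6v1 probe 368, at -2.23, lies at 0.34.

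Whether probes of 1 name differed was tested on the difference of 2 probes within each array, which does not depend on centring whole arrays. Centring within print blocks would change a difference across blocks, and the pairs were not fitted that way. Cyp2c12 probe 372 lies in print block 4, and Cyp2c12 probes 1091, 1103 and 1107 lie in block 10. Cyp2c6v1 probes 368 and 1097 lie in blocks 4 and 10. limma was fitted over all pairs of probes with the same symbol and all pairs of Cyp2c probes, and gave 1 pooled SE of 0.125 for every pair. Of 18 pairs of Cyp2c probes of the same gene, 10 differed, against 21.3% of 681 such pairs outside the subfamily. No pair of Cyp2c22 probes passed, and the largest of their differences, probe 421 minus probe 1392, was 0.16 with a 95% interval of -0.084 to 0.41. Of 6 Cyp2c12 pairs 5 differed, the largest being probe 372 minus probe 1091 at 1.54 (95% interval 1.29 to 1.78). The pair that did not pass was probe 1091 minus probe 1103, at -0.17. Of 6 Cyp2c6v1 pairs 3 differed, each of them with probe 368, up to 0.59 (0.35 to 0.84) above probe 1097. Of 3 Cyp2c23 pairs, 2 differed, with probe 766 below probe 374 by 0.97 and below probe 1344 by 0.70. Without array 2, 5 of the 18 pairs differed, and without array 4, 6.

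**Figure D4:**
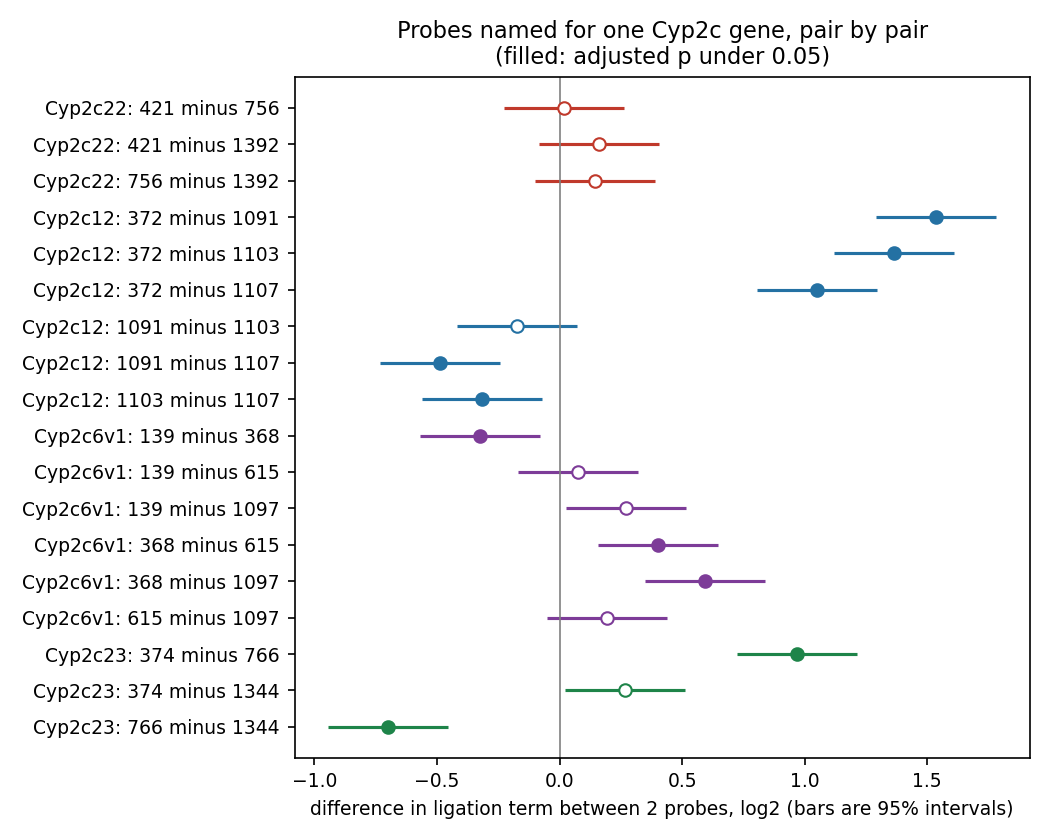
Difference in ligation term between 2 probes named for the same Cyp2c gene (horizontal, log2, bars are 95% intervals), 1 row per pair, with filled points for limma adjusted p under 0.05. The 3 Cyp2c22 pairs lie across 0, the Cyp2c12 pairs with probe 372 lie between 1.05 and 1.54, and the pairs with Cyp2c23 probe 766 lie away from 0 by 0.70 and 0.97.

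Between genes, 52 of 73 pairs differed. Pairs of different genes outside the subfamily were not fitted, so no share over the array stands beside this count. In the order of ligation terms, read as ligation over sham, the 3 Cyp2c22 probes and Cyp2c12 probe 372 came first. Probe 372 was below the Cyp2c22 probes by 0.19, 0.18 and 0.034 (log2), none of which passed, and the 95% intervals of probe 372 minus probes 421, 756 and 1392 ran from -0.44 to 0.050, from -0.42 to 0.067 and from -0.28 to 0.21. Each Cyp2c22 probe differed from each of the remaining 10 members, in 30 of 30 pairs. Probe 372 likewise differed from all 3 other Cyp2c12 probes and from all 7 probes of Cyp2c6v1 and Cyp2c23. Cyp2c6v1 probe 368, next in order, was 0.99 below probe 372. From there down to Cyp2c6v1 probe 1097, no 2 neighbours in the order differed at adjusted p under 0.05, but 13 of the 36 pairs among these 9 probes did, and its ends, probes 368 and 1097, lay 0.59 apart. Cyp2c23 probe 766 came last, 0.57 below Cyp2c6v1 probe 1097, and differed from all 13 other members. Probes 372 and 766 were singled out by their place in this order, so these counts of pairs only describe it. Read as Cy5 over Cy3, the order followed the dye differences alone. Probes 756 and 421 of Cyp2c22 came first at 0.87 and 0.83, followed by Cyp2c6v1 probe 1097 at 0.78, Cyp2c23 probe 766 and Cyp2c22 probe 1392 at 0.76 each and Cyp2c23 probe 1344 at 0.70. Cyp2c12 probe 372 was then number 7 of 14, at 0.57, and the differences between probes were not tested under that reading. Cyp2c cDNA probes can bind transcripts of related members, and the probe sequences were not used here, so which transcript each probe measured was not tested.

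The genes most like each member gene were taken as the 3 with the smallest Euclidean distance over the centred values of the 4 arrays, with probes averaged per gene. Centred values also hold the difference between dye orientations, so the distance takes in dye as well as ligation. For Cyp2c22 they were Cavin3, a caveola protein, Fabp5, a fatty acid-binding protein, and the desaturase Scd, at distances of 0.63, 0.88 and 1.23, where the median gene lay at 3.52. For Cyp2c12 they were the mevalonate kinase Mvk, Sh3yl1 and the glutathione peroxidase Gpx2 (0.15, 0.16 and 0.19, median 1.24). For Cyp2c23 they were Cyp2f4, the calcium-binding protein Cib1 and the GTPase Arf4 (0.15, 0.19 and 0.19, median 1.37), and for Cyp2c6v1 the diacylglycerol kinase Dgka, Pex6 and the guanylate kinase Guk1 (0.077, 0.086 and 0.094, median 1.02). The averages behind Cyp2c12, Cyp2c23 and Cyp2c6v1 combine probes that differed, so their neighbours describe those averages only.

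Other P450 genes were set beside the subfamily. Of 47 probes for 25 genes, 21 were lower, 1 was higher and 25 did not pass, with a median ligation term of -0.15, beside 0.078 for the 14 Cyp2c probes and -0.011 for all tested probes. The lowest were the sterol 12-alpha-hydroxylase Cyp8b1 (probe 1391, -3.04 ± 0.11, SE, while probe 422 stood at -0.089 and did not pass), the drug-oxidising Cyp1a2 (-1.88 and -1.85, 2 probes), Cyp2e1 (probes 1234 and 1639, -1.36 and -1.14, while its other probes did not pass) and Cyp2b21 (-1.20). The higher one was Cyp2u1, a fatty acid hydroxylase (0.83 ± 0.08, SE). Centred on the median of these 47 probes instead, 13 of 14 Cyp2c probes were called higher and Cyp2c23 probe 766 lower (-0.39 ± 0.09, SE), but 84.5% of all tested probes were then called higher and 5.34% lower. With 1 array left out, 11 or 12 of the 14 were called higher. The Cyp2c22 probes stood at 1.95, 1.94 and 1.79 on that scale and Cyp2c12 probe 372 at 1.76.

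**Figure D5:**
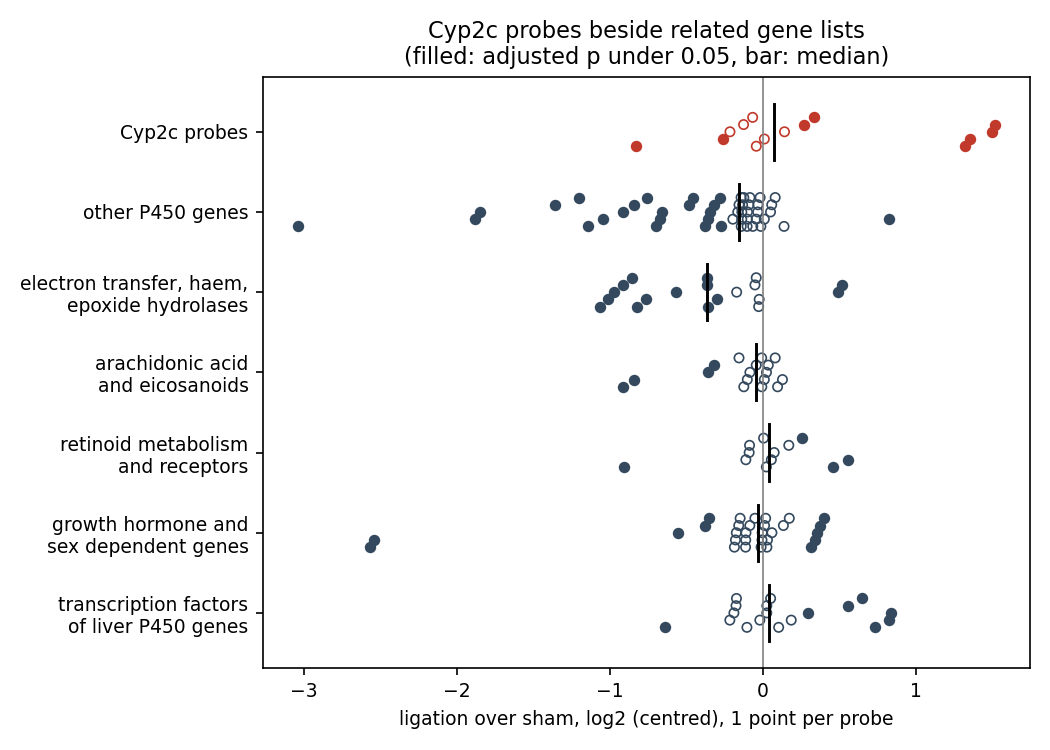
Ligation term (horizontal, centred log2 ratio of ligation over sham) of the Cyp2c probes (red) and of 6 related gene lists (dark), 1 point per probe, filled where limma adjusted p was under 0.05, with a bar at each median. The 4 highest Cyp2c probes, at 1.32 to 1.52, lie above every point of the other lists, the highest of which is the transcription factor Nfkb2 at 0.84.

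The partners and substrates of the Cyp2c enzymes were followed by lists. Of 19 probes for 7 genes of electron transfer, haem and epoxide hydrolysis, 12 were lower and 2 higher (median -0.36). The probes of cytochrome b5 (Cyb5a) disagreed. Probes 1406, 264, 408 and 440 were lower, at -1.06 to -0.92, probe 1342 was higher at 0.52, and probe 140 did not pass at -0.022. The other higher probe was that of the soluble epoxide hydrolase Ephx2, which hydrolyses the epoxides that epoxygenases form, at 0.49 ± 0.08 (SE). Without centring neither of the 2 higher probes was called (0.14 and 0.11). Of 17 probes for 10 genes of arachidonic acid metabolism, 4 were lower and 0 higher (median -0.041), with the fatty acid hydroxylase Cyp4f4 (probe 642) at -0.91 ± 0.10. All 4 were probes of Cyp4f4, Cyp4f6 and Cyp4f1, already counted among the other P450 genes. No probe of Alox15, Pla2g2a, Pla2g1b or Ptgds passed. Of 12 probes for 7 genes of retinoid metabolism and retinoid receptors, 1 was lower, the retinoid X receptor Rxra at -0.90 on probe 1512, while its probe 1225 stood at -0.087 and did not pass, and 3 were higher (median 0.041), among them the retinal dehydrogenase Aldh1a1 at 0.56 ± 0.08 (SE), which was 0.18 and not called without centring.

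Markers of other cell types were measured in the same pools. Of 6 probes on the list taken for cholangiocytes 1 was higher, Anxa5 at 0.95. Those of Spp1, Aqp1, Cd24 and Ggt1 did not pass (-0.065 to 0.14). Of 9 leukocyte and Kupffer cell probes 4 were lower (-0.57 to 0.14). Of 9 stellate cell and matrix probes 1 was higher and 2 lower (-0.42 to 0.35), and of 8 endothelial probes 2 were lower (-1.18 to 0.093). Of 12 hepatocyte marker probes, 6 were higher and 2 lower (-0.52 to 0.38), and none of the 12 was called higher without centring. Their part in the Cyp2c results was not tested.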

How the data were processed

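Liver RNA pools of rats with a ligated duct and of sham-operated rats were compared on 4 two-colour cDNA arrays. The values are log2 ratios as deposited, 1 per probe and array. For scanning, background correction, normalization, the logarithm's base (taken as 2) and the direction, the labels used here give nothing. No intensity was used, so signal over background is unknown, and the number of arrays limits the precision. Probe names came from the platform's annotation table, where 1432 probes had 1 symbol, 19 several and 485 none. The symbols of all 14 Cyp2c probes matched RefSeq. The 288 spots at the 18 positions unnamed in each of 16 print blocks were taken as controls, and no test used them.

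After centring by array median, a ligation term and a dye term were fitted with limma 3.58.1 in R 4.3.3 (lmFit, eBayes; prior SD 0.168 on 11.7 prior and 2 residual degrees of freedom), with Benjamini-Hochberg adjustment over 1648 probes. Differences between probes were fitted likewise over 772 pairs. The fits were also run on data simulated from the same model with independent errors, which cannot show whether that model holds for these arrays. All Cyp2c probes were named, and from other P450 genes and lists those past the threshold with the largest change, except Cyp2u1, Ephx2 and others given as single examples, which were chosen after their values were seen. The members and lists were chosen with earlier results of these data known.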

Additional observations from a re-analysis of the deposited data

Results flagged for a closer look

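Cyp2c22 probe 756 had a deposited log2 ratio of 1.54 on array 1, where the other 3 arrays lay between 0.94 and 1.01. The gap to the nearest of them was 0.895 of the whole range, above Dixon's 95% critical value for 4 values. It was 1 of 28 sets of 4 values examined, deposited and centred, and chance flags about 1 in 20. Without array 1 the probe's ligation term was 1.29 and it stayed called higher.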

How the results depend on the processing

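The calls on the 14 Cyp2c probes were all kept under quantile normalization, scaling to a common spread, a robust prior and all spots kept. Taking the values as natural logarithms rescales all of them alike, so it could not change a call. With 1 array left out, 4 to 6 Cyp2c probes were called higher and 1 to 2 lower, and 5 to 11 of the 18 same-gene pairs differed. Cyp2c22 probes 421, 756 and 1392 and Cyp2c12 probe 372 stayed called in each of these. Without the dye term the Cyp2c ligation terms were the same, but 0 Cyp2c probes were called higher and 0 lower. Other P450 probes were then called higher in 0 cases and lower in 1, Cyp2c probes stood above the other P450 probes in 4 cases and below in 0, and 2 same-gene and 13 cross-gene pairs differed. Without centring 7 Cyp2c and 45 other P450 probes were called lower, and Cyp2c12 probe 1107 was at -0.11, Cyp2c6v1 probe 139 at -0.37 and Cyp2c6v1 probe 368 at -0.046. Centring on the tested probes left 1 Cyp2c probe called lower, and so did centring on the probes least affected by dye, which was chosen after seeing the data.

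Read as Cy5 over Cy3, 10 Cyp2c and 31 other P450 probes were called higher and 8 other P450 probes lower, and 7 Cyp2c probes stood above the other P450 probes and 4 below. No share of all tested probes stands beside these counts, so they show nothing particular to the members. The sign turned for Cyp2c12 probe 1091 (0.28), Cyp2c23 probes 766 (0.76) and 1344 (0.70) and Cyp2c6v1 probes 368 (-0.39) and 1097 (0.78), and for Cyp2c6v1 probe 615, called under neither reading (0.069). Relative to the other P450 probes it turned for Cyp2c12 probes 1091 (-0.068) and 1103 (-0.73), Cyp2c23 probe 766 (0.41) and Cyp2c6v1 probes 139 (-0.30), 368 (-0.74) and 615 (-0.28). It also turned for Cyp8b1 (0.32), Cyp1a2 (0.76 and 0.80), Cyp2e1 (0.79), Cyp2b21 (0.77), Cyb5a (0.75), Rxra (0.70), Aldh1a1 (-0.051), Nr1h4 (0.16), Cyp4f4 (0.55), Car3 (0.69) and Igfals (0.54). Averaging probes per gene gave 0.34 for Cyp2c12, against the sign of probes 1091 and 1103, -0.27 for Cyp2c23, against probe 374, and 0.0061 for Cyp2c6v1, against probes 1097 and 615. Read as Cy5 over Cy3, a term depends only on the probe's dye difference, plus a shift common to all probes. The turns under that reading follow from this arithmetic, and those under averaging from combining probes that differed. Which direction the deposited ratio has was not tested.

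No paired analysis was possible because each array already holds both pools and its ratio is the pair. With 4 arrays the smallest exact two-sided sign-flip p is 0.125, so every call rests on limma's spread pooled over probes.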

Other observations

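Liver genes that depend on growth hormone or sex, the control under which Cyp2c12 is female-specific, were followed on 30 probes for 13 genes. Of these 5 were higher and 5 lower, with a median ligation term of -0.030, where 11.8% of all tested probes were called higher and 16.1% lower. Carbonic anhydrase Car3 (probe 1266) was at -2.57 ± 0.08 (SE) and Igfals, the acid-labile subunit that carries insulin-like growth factors, at -0.56 ± 0.08 (SE). Igfbp2, a binding protein of the same factors, was at 0.40 ± 0.08 (SE) on probe 555, while its probe 1715 stood at -0.16 and did not pass. None of the 30 probes was called higher without centring.

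Of 18 probes for 13 transcription factors known to control liver P450 genes, 6 were higher and 1 lower. Of all tested probes, 11.8% were called higher and 16.1% lower. The highest were Nfkb2 probes 330 and 481, at 0.84 and 0.83. Nr0b2, the bile acid-induced repressor SHP, was at 0.74 ± 0.09 (SE) on probe 1795 and 0.56 on probe 1544. Nr1h2 was at 0.65 and Cebpd at 0.30. Without centring the Nfkb2 probes stayed called higher at 0.46 and 0.45, Nr0b2 probe 1795 at 0.36 and Nr1h2 at 0.27. Nr0b2 probe 1544 and Cebpd did not, at 0.18 and -0.087. The lower one was the bile acid receptor gene Nr1h4, at -0.64 ± 0.10 (SE).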
